A study of Mus musculus with 8 samples.

Results

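The genes described here are 9 genes of the retinoic acid pathway, the enzymes *Aldh1a1*, *Aldh1a2* and *Aldh1a3*, the carrier *Crabp2*, the receptors *Rara*, *Rarb*, *Rarg* and *Rxra*, and the degrading enzyme *Cyp26b1*, chosen by name from the 37273 genes annotated by GENCODE on the autosomes, X and Y of the mouse build mm9. BRG1 (SMARCA4) is the ATPase of the SWI/SNF chromatin remodelling complex, and the study profiled its binding in the heart by chromatin immunoprecipitation and sequencing (ChIP-seq). Adult C57BL/6 mice aged 10 to 12 weeks per the sample labels received PBS or 12 mg per kg of the peptide thymosin β4 (Tβ4) daily for 1 week (priming) and were then given a myocardial infarction (MI) by permanent closure of the left anterior descending artery. The methods of the study name the primed wild-type mice as C57BL/6J and give a somewhat older age for mice with MI. Injections were repeated on the day of MI and on day 2, and hearts were taken on day 4. Each of the 4 groups (BRG1 ChIP and input chromatin, PBS-primed and Tβ4-primed) had 2 libraries, and no group was without injections or without injury.

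All values below come from 1 deposited list, which places BRG1-enriched regions of Tβ4-primed, injured hearts, called against input, on the genome. It gives 524614 regions with a median length of 600 bp (quartiles 300 and 1560 bp), which cover 25.8% of mm9. The list holds a start and an end for each region and no height, so that the depth is unknown, the duplicates cannot be set against each other and PBS- and Tβ4-primed hearts were not compared. Per the sample labels chromatin came from digested hearts, and the list does not say in which cells of the heart a region was bound. Intervals given below treat genes as independent and take no account of replicate error.

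Retinoic acid is made from retinal by the ALDH1A family of dehydrogenases, is carried to the nucleus by CRABP2 and is removed by hydroxylases of the CYP26 family. In the nucleus it binds retinoic acid receptors (RARs), which pair with retinoid X receptors (RXRs) on response elements made of repeated hexamer half-sites and thereby set the transcription of target genes, some of which encode parts of the pathway itself. The epicardium, the outer layer of the heart, is known for expressing *Aldh1a2* (also called Raldh2) during development, and retinoic acid is a known signal in heart development and after injury.

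The 9 genes differed widely in the share of their bases that lay inside BRG1 regions. In a window of the gene body and 5 kb on either side, the covered share ran from 7.34% at *Crabp2* to 45.2% at *Aldh1a2*, and its median over the 9 genes was 24.7%, beside 24.0% over all annotated genes. The 3 synthesis genes and *Rxra* made up the upper end, with shares between 42.0% and 45.2%, and the next gene, *Rarb*, lay at 24.7%. *Rarg* at 24.3% and *Rara* at 22.6% followed closely, and *Cyp26b1* at 11.0% and *Crabp2* formed the lower end. Because long genes hold more regions, each gene was ranked among the 200 annotated genes nearest to it in length, and its percentile is the share of those genes with a lower covered share, ties counted at their middle. The median percentile of the 9 genes was 51.

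Of the 9 genes, 4 lay above the upper quartile of their genes of like length (*Aldh1a1*, *Aldh1a2*, *Aldh1a3* and *Rxra*), as did 24.8% of all genes by the same measure. Below the lower quartile lay 2 of the 9 genes (*Crabp2* and *Cyp26b1*), as did 24.9% of all genes. The quartiles were taken as limits after the values had been seen. Both ends of the range are described gene by gene below, and no test was made of the list as a whole.

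**Figure D1:**
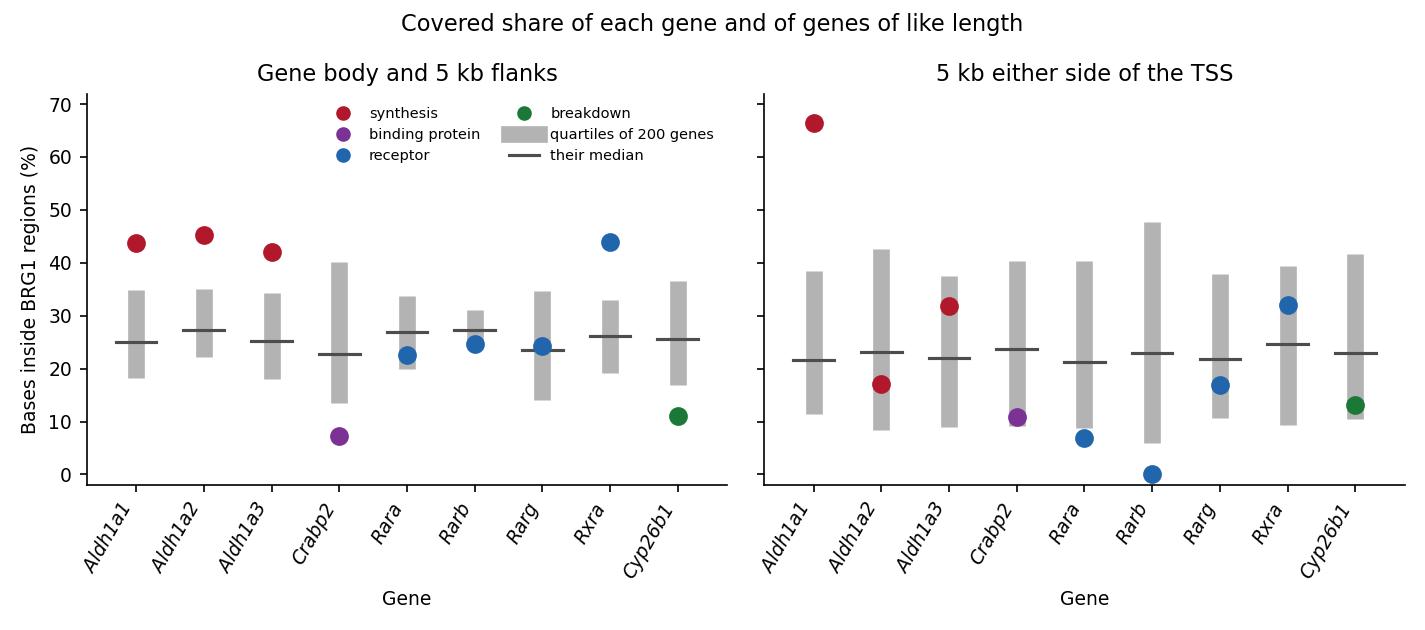
Share of bases inside BRG1 regions (%) for the gene body with 5 kb flanks on the left and for 5 kb on either side of the annotated gene start (TSS) on the right. Each point is 1 gene, grey bars span the quartiles of the 200 genes nearest in length and the dark line is their median. On the left the 3 synthesis genes and *Rxra* stand above their grey bars, whereas on the right *Aldh1a1* alone does so and *Rarb* is at 0.

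Among the synthesis genes, *Aldh1a2* (ENSMUSG00000013584.5, chr9:71063596-71144050, plus strand, 80455 bp) encodes the retinal dehydrogenase that makes most retinoic acid in the embryo. Its window held 18 regions, and its covered share lay at the 96.5th percentile (95% Wilson interval 93.0 to 98.3), where genes of like length had a median of 27.3%. By number of regions per kb the same gene was only at the 35th percentile. Its regions were long, with a median of 1275 bp and 7 of 18 above 2 kb. The longest of these, 8730 bp at chr9:71091570-71100299, lay 28.0 to 36.7 kb downstream of the start within an intron, and a region of 7770 bp followed at chr9:71112990-71120759. Coverage was uneven along the gene. From the 5′ to the 3′ end, successive stretches of 25% of the gene body were covered to 48.2%, 67.9%, 70.1% and 14.0%, and no region was listed from 63.6 to 85.4 kb downstream of the start.

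*Aldh1a2* was also the only member whose annotated start lay inside a region, a state shared by 24.7% of all genes (1 of 9 members). The region was 1290 bp long (chr9:71063010-71064299) and covered all bases within 500 bp of the start, whereas within 5 kb on either side the share was 17.1% (40th percentile, and 70.5th with 2 kb on either side). The other 2 regions there were 210 bp long each, and the number per kb was at the 54.25th percentile. The 200 bases before this start are shown because they are the only upstream sequence of a member's annotated gene start that lies wholly in a BRG1 region. They occupy chr9:71063396-71063595 (mm9, plus strand), with CpG dinucleotides in capitals.
Aldh1a2 upstream: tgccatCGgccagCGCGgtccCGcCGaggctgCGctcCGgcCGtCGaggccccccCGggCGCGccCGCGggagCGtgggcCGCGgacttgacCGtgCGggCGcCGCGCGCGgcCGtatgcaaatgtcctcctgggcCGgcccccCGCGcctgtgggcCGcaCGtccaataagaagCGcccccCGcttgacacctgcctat
The stretch holds 32 CpGs and is 77% G+C, with a ratio of observed to expected CpGs of 1.09, a density typical of CpG islands. Within 500 bp of the start that ratio was 0.93, the highest of the 9 genes.

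*Aldh1a1* (ENSMUSG00000053279.6, chr19:20676451-20717952, plus strand, 41502 bp) encodes a cytosolic retinal dehydrogenase. Its 9 regions covered 43.8% of the window (90.5th percentile, 85.6 to 93.8), against an upper quartile of 34.8% in genes of like length. By number of regions per kb it lay at the 24.5th percentile, the lowest of the 9 genes, and its regions were the longest in the median, 2070 bp, with 6 of 9 above 2 kb. Around the start it had the highest covered share of the 9 genes, 66.4% within 5 kb on either side (96.5th percentile, 93.0 to 98.3). With 2 kb on either side it was at the 75th percentile, and by regions per kb within 5 kb at the 35th. Most of this came from a region of 5940 bp (chr19:20676840-20682779) that began 389 bp downstream of the start, so that the start itself was not inside a region. The sequence around this start had few CpGs (observed to expected ratio 0.17), unlike that of *Aldh1a2*.

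*Aldh1a3* (ENSMUSG00000015134.8, chr7:73535778-73572403, minus strand, 36626 bp) encodes a further retinal dehydrogenase. Here 13 regions covered 42.0% (90.5th percentile, 85.6 to 93.8), and both the covered share and the number per kb (76th percentile) were above those of most genes of like length. From the 5′ to the 3′ end, stretches of 25% of the body were covered to 65.9%, 24.2%, 4.64% and 77.7%, so that the ends were covered most. No region was listed from 14.5 to 27.0 kb downstream of the start, where the longest region began (3540 bp, chr7:73541820-73545359). The annotated start was 1694 bp from the nearest region, its upstream flank of 5 kb held none, and its downstream flank was covered to 76.0%. Within 5 kb on either side of the start 31.9% was covered (63.5th percentile). With 2 kb on either side *Aldh1a3* lay at the 36.5th percentile, and by regions per kb within 5 kb at the 39th. *Lrrk1* begins 2541 bp and *Gm10974* lies 4582 bp beyond the 3′ end of *Aldh1a3*, so that part of this flank belongs to other genes.

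**Figure D2:**
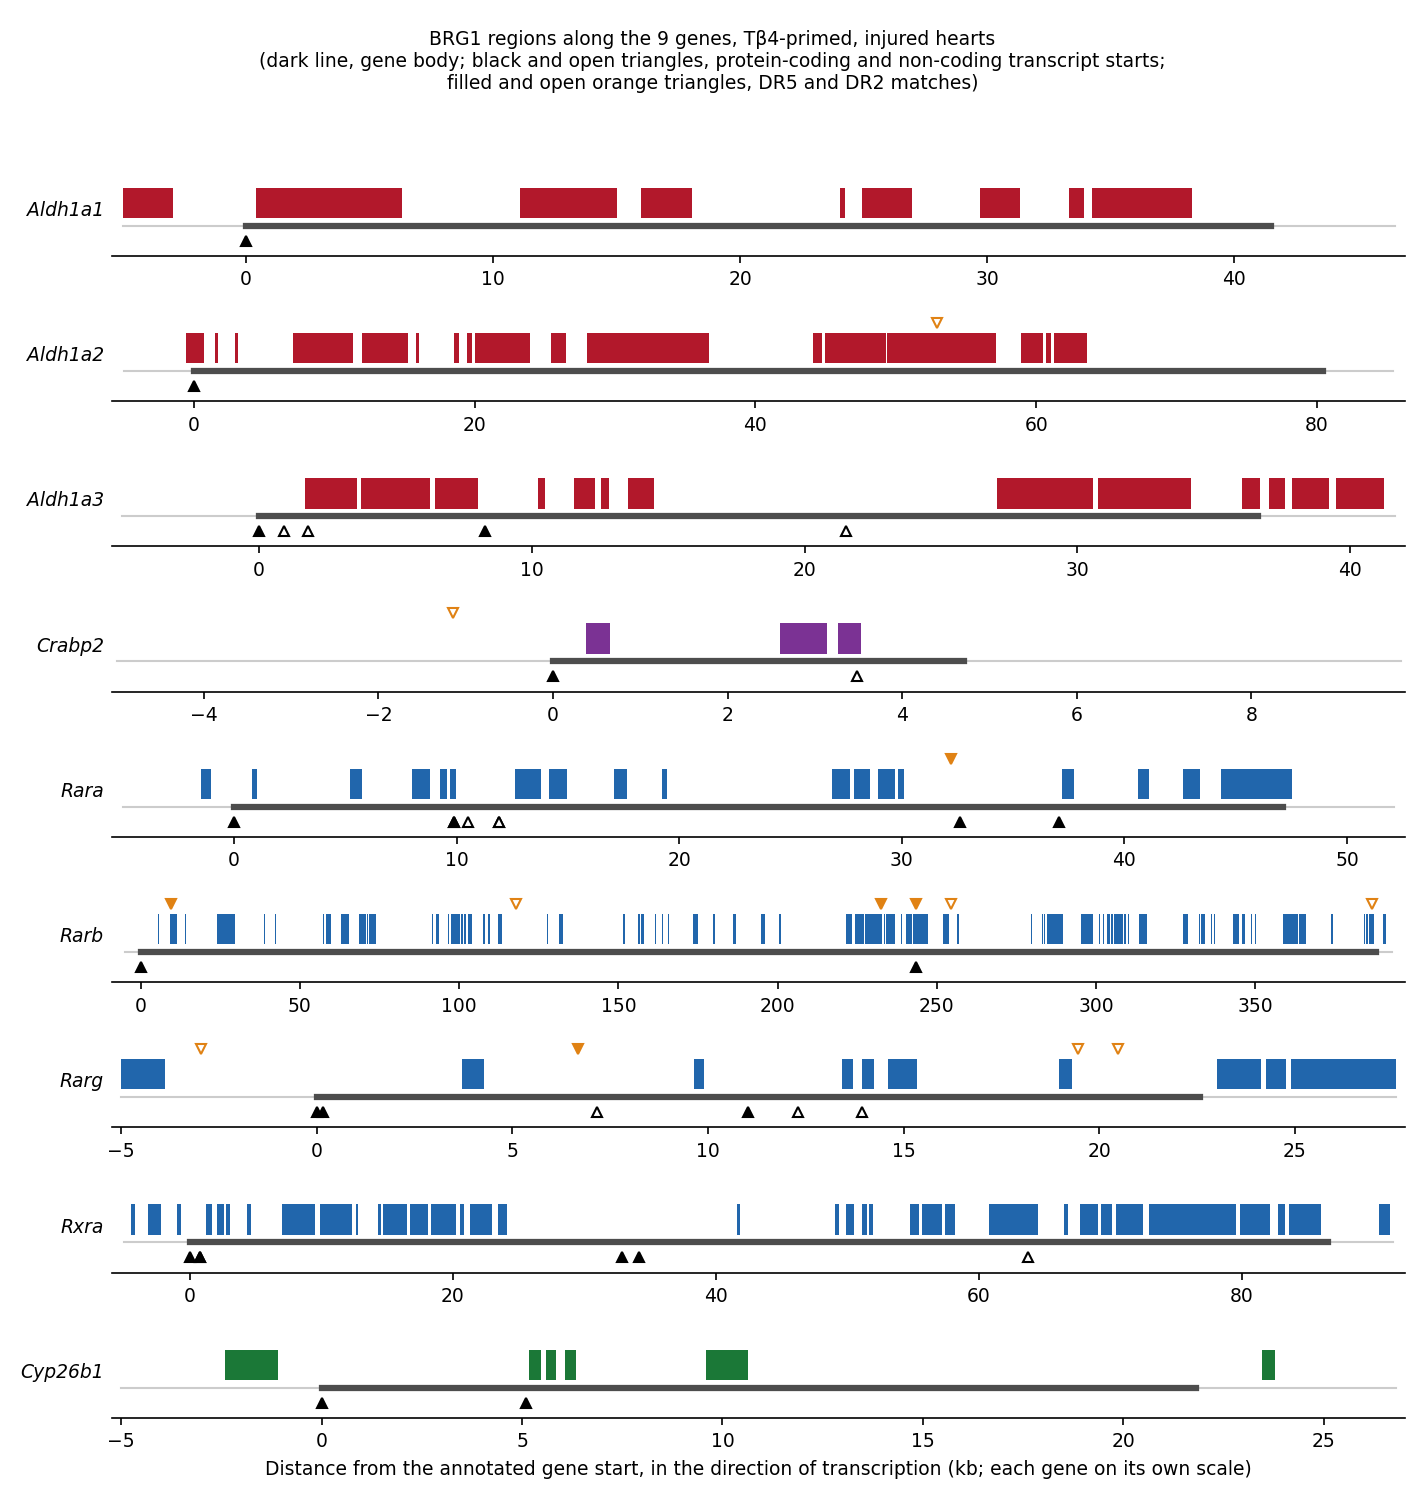
BRG1 regions (coloured blocks) along each of the 9 genes and their 5 kb flanks, by distance from the annotated gene start in kb, in the direction of transcription, with a scale of its own for each gene. Triangles below the line are protein-coding (filled) and non-coding (open) transcript starts, and those above are DR5 (filled) and DR2 (open) matches; the synthesis genes carry long blocks, *Crabp2* 3 short ones and *Rarb* 82 regions with none at its gene start.

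The carrier gene *Crabp2* (ENSMUSG00000004885.5, chr3:87752588-87757298, plus strand) is the shortest member, with 4711 bp. Its 3 regions were 270, 540 and 270 bp long, all lay within the gene body, and both flanks were without a region. The covered share of the window was therefore low (7.34%, 14.5th percentile, 10.3 to 20.0), whereas in the body alone it was 22.9% (53rd percentile), close to the median of genes of like length (20.4%). The nearest region to its start began 382 bp downstream. The rank of *Crabp2* depended on the flanks and on the measure, since it was at the 44th percentile with flanks of 10 kb and at the 40.5th by regions per kb. With only regions of at least 600 bp counted, which leaves out all 3 of its regions, it was at the 5.75th.

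The receptors are ligand-dependent transcription factors, and *Rxra* encodes the retinoid X receptor that is the main partner of the RARs in the heart. *Rxra* (ENSMUSG00000015846.8, chr2:27531960-27618477, plus strand, 86518 bp) had 35 regions in its window, 0.36 per kb (99th percentile), and they covered 43.9% (96th percentile, 92.3 to 98.0). It was the member whose rank was highest by number and among the highest by bases, and in each alternative way of counting its gene window stayed between the 94.5th and the 99th percentile. Regions were dense in the 5′-most 25% of the body (58.8%) and the 3′-most 25% (76.7%), and a stretch from 24.2 to 41.6 kb downstream of the start had none. The longest region was 6660 bp (chr2:27604890-27611549) and touched an exon. Around the start 7 regions were listed within 5 kb, more per kb than in nearly all genes of like length (99.25th percentile). They were short, however, and covered 32.1% (63.5th percentile). With only regions of at least 600 bp counted, the covered share around the start was at the 35.5th percentile. None of the 5 protein-coding starts of *Rxra* lay inside a region. The starts of transcripts Rxra-002 and Rxra-003, which fall in the empty stretch, were 8703 and 7497 bp from the nearest region.

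*Rara* (ENSMUSG00000037992.9, chr11:98789132-98836256, plus strand, 47125 bp) encodes RARα, the RAR found most widely across tissues. It held 18 regions, many for its length (87th percentile), but they were short, with a median of 555 bp and 1 of 18 above 2 kb, and covered 22.6% of the window (36th percentile, 29.7 to 42.9). The longest, 3180 bp at chr11:98833470-98836649, lay over its 3′ end. Within 5 kb of the annotated start 6.90% was covered (20.5th percentile), whereas with 2 kb on either side *Rara* lay at the 52.5th percentile. The gene *Cdc6* lies 3877 bp upstream, and a *U6* small nuclear RNA gene is annotated inside *Rara*. *Rara* has 6 annotated protein-coding starts, and those of Rara-002 and Rara-001, 9.88 and 9.90 kb downstream of the gene start, lay inside a region of 300 bp (chr11:98798820-98799119). The 200 bases before Rara-002 are shown as the sequence of the internal start that the region marks (chr11:98798812-98799011, mm9, plus strand, CpGs in capitals).
Rara-002 upstream: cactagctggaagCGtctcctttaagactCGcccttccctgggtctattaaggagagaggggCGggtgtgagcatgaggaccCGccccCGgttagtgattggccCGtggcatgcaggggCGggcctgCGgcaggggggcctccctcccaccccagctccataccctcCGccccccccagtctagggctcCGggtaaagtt
The stretch holds 10 CpGs and is 66% G+C, and 96% of it lies in the region. The CpG ratio, 0.46, is lower than that before *Aldh1a2*.

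*Rarg* (ENSMUSG00000001288.8, chr15:102065369-102087948, minus strand, 22580 bp) encodes RARγ. Its window had a covered share of 24.3% at the 51st percentile (44.1 to 57.8), but the covered share differed between the gene and its flanks. The body held 6 of the 10 regions and was covered to 10.9% (22.5th percentile), the upstream flank to 22.4% and the downstream flank to 86.8%, the highest of any flank of the 9 genes. The longest region that reached the window, 3270 bp at chr15:102059790-102063059, lay in that downstream flank, where the neighbouring gene *Itgb7* begins 3002 bp away. Around the start, no region was listed from 3.88 kb upstream to 3.71 kb downstream, and none of its 3 protein-coding starts was inside a region.

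*Rarb* (ENSMUSG00000017491.7, chr14:17263356-17651381, minus strand) encodes RARβ, and its gene is by far the longest of the 9 with 388026 bp. The window held 82 regions, which covered 24.7%, a little less than in genes of like length (median 27.4%, 26th percentile, 20.4 to 32.5). By number of regions per kb *Rarb* lay at the 59th percentile. Genes of this length are few, and the 200 nearest in length ran from 329447 to 446223 bp. *Top2b* lies 54 bp beyond its 3′ end. Its regions were of common size, with a median of 675 bp and 16 of 82 above 2 kb, the longest 5760 bp (chr14:17621670-17627429). *Rarb* differed from the other 8 genes at its annotated start. It was the only member with no region within 5 kb of the annotated start (8 of 9 members had at least 1, and 89.9% of all genes), and the nearest region began 5412 bp downstream, farther than at 91.3% of all genes.

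*Rarb* has a second protein-coding start, that of transcript Rarb-202, 243 kb downstream of the start shared by Rarb-201 and Rarb-203. This internal start is known from textbooks as the retinoic acid-responsive promoter of the gene. It lay inside a region of 2970 bp (chr14:17406060-17409029), and regions covered all bases within 500 bp of it, 91.6% within 2.5 kb and 67.8% within 5 kb on either side. Among 46022 annotated protein-coding starts, whose median share within 2.5 kb was 17.9%, this was the 97.0th percentile, and at 5 kb the 94.0th. At the start of Rarb-201 and Rarb-203 the covered share was 0% at each of these distances. This was the 4.60th percentile at 5 kb, the 11.7th at 2.5 kb and the 28.1st at 500 bp, where the median of all protein-coding starts was also 0%. The region over the start of Rarb-202 did not stand alone. It belonged to a run of closely spaced regions from 221.5 to 247.2 kb downstream of the gene start. A longer region of this run, 5520 bp, lay at 227.4 to 232.9 kb. The contrast between the 2 starts was singled out after the values had been seen and not tested.

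**Figure D3:**
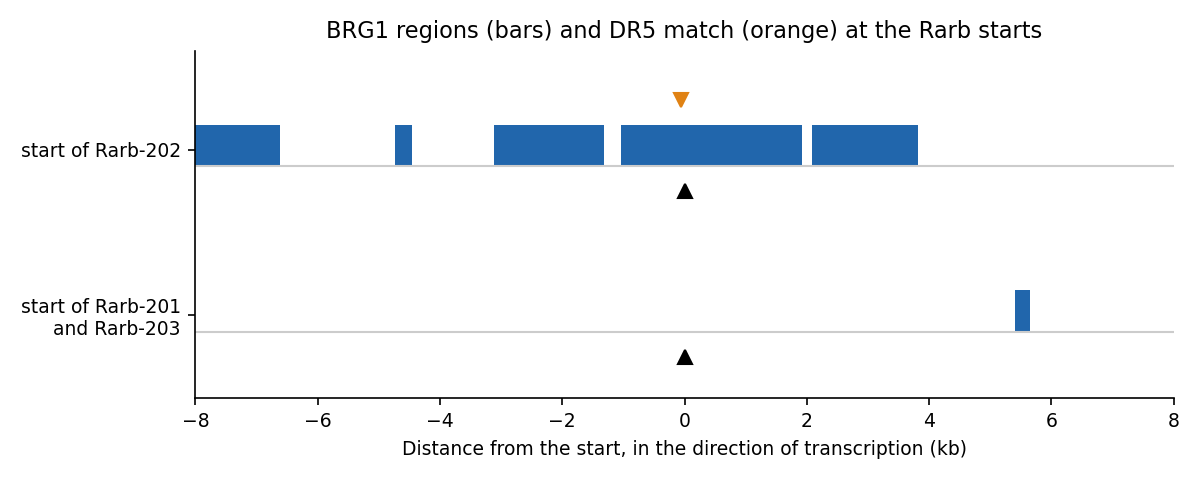
BRG1 regions (bars) within 8 kb of the 2 protein-coding starts of *Rarb*, by distance from the start in kb in the direction of transcription, with starts as black triangles and the DR5 match as an orange triangle. The start of Rarb-202 lies in a region of 2970 bp that also holds the DR5 match, whereas the first region near the start of Rarb-201 and Rarb-203 begins 5412 bp downstream.

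The sequence before Rarb-202 is shown because it holds a retinoic acid response element inside a BRG1 region. It occupies chr14:17407987-17408186 (mm9, minus strand, 200 bases), with the half-sites of the element in capitals.
Rarb-202 upstream: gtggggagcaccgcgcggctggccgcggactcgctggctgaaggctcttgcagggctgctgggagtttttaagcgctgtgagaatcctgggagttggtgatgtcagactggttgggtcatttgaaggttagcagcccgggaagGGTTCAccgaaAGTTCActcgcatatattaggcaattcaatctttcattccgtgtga
The element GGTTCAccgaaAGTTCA (chr14:17408027-17408043, minus strand) is a direct repeat with 5 bases between its half-sites (DR5), ends 41 bp before the start and is read in the direction of the gene. Such a repeat was found within 200 bp before 26 of 46022 protein-coding starts (0.0565%), of which 5 had a region over the start.

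Response elements were searched across all windows on both strands, as direct repeats with 5 (DR5) or 2 (DR2) bases between. The half-sites allowed were AGGTCA and AGTTCA as well as GGGTCA and GGTTCA, in any pairing. At least 1 DR5 match was found in 11.1% and at least 1 DR2 match in 26.7% of all gene windows, and within 5 kb of the start in 3.63% and 11.1%. In the genome 27.8% of 8929 DR5 and 26.6% of 27163 DR2 matches lay inside regions, near the share of the genome that regions cover. The 9 windows held 5 DR5 matches, of which 3 were inside regions, and 8 DR2 matches, of which 2 were. With the half-site AGGTCA alone, no match of either kind was found in the 9 windows. A match describes letters in the sequence and not binding.

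All 3 DR5 matches inside regions were in *Rarb*, whose window is much longer than those of the other genes. The matches are printed with their half-sites in capitals, since their position relative to the regions is what the comparison rests on.
Rarb DR5, chr14:17408027-17408043, minus strand, in the region of 2970 bp: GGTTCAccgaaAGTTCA
Rarb DR5, chr14:17641954-17641970, minus strand, in a region of 2100 bp: GGTTCAtggttGGGTCA
Rarb DR5, chr14:17418765-17418781, plus strand, in a region of 5520 bp: GGTTCAggagaGGGTCA
Rara DR5, chr11:98821322-98821338, plus strand, 2103 bp from a region: AGTTCAgcaagAGTTCA
Rarg DR5, chr15:102081248-102081264, minus strand, 2406 bp from a region: GGTTCAaagtgAGGTCA
Those of *Rara* and *Rarg* lay 388 bp before the start of Rara-004 and 471 bp before that of the non-coding Rarg-003, and neither of these starts was within 2 kb of a region.

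Of the DR2 matches, 4 are shown, the 2 that lay inside regions and the 2 upstream of an annotated gene start.
Aldh1a2 DR2, chr9:71116515-71116528, minus strand, in the region of 7770 bp: AGGTCAggAGTTCA
Rarb DR2, chr14:17264680-17264693, plus strand, in a region of 1800 bp: GGGTCAagGGTTCA
Crabp2 DR2, chr3:87751447-87751460, plus strand, 1510 bp from a region: AGTTCAccAGGTCA
Rarg DR2, chr15:102090904-102090917, plus strand, 913 bp from a region: AGGTCAgaGGGTCA
The match at *Crabp2* ended 1128 bp and that at *Rarg* lay 2956 bp before the gene start. The remaining DR2 matches, 2 in *Rarb* and 2 in *Rarg*, lay between 151 and 4246 bp from the nearest region. The windows of *Aldh1a1*, *Aldh1a3*, *Rxra* and *Cyp26b1* held no match of either kind.

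*Cyp26b1* (ENSMUSG00000063415.5, chr6:84521938-84543740, minus strand, 21803 bp) encodes a hydroxylase that clears retinoic acid. It was the gene with the lowest rank, with 6 regions that covered 11.0% of its window (11.5th percentile, 7.79 to 16.7), against a median of 25.6% in genes of like length. Its 2 longest regions were 1320 bp (chr6:84544830-84546149), upstream of the start, and 1050 bp, and the other 4 were shorter than 600 bp. The 3′-most 50% of the gene body was without a region. In the alternative ways of counting, its gene window stayed between the 4.5th and the 28.5th percentile. Counted by closest gene, which takes in regions outside the window, 34 regions were linked to *Cyp26b1*. Over the 9 genes such counts ran from 3 at *Crabp2* to 168 at *Rarb*, and they are given without a value over all genes.

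The rank of the 9 genes near their annotated starts depended on the width of the window. Within 5 kb of the start the median covered share was 16.9%, beside 21.5% over all genes, and the median percentile was 40. With 2 kb on either side of the start the median percentile was 52.25. At 5 kb, 6 of the 9 genes lay below the median of their genes of like length, as did 49.7% of all genes. The flank of 5 kb upstream of the start was covered to 15.8% over the 9 genes, beside 26.2% over all genes, and those of *Aldh1a3*, *Crabp2* and *Rarb* had no region. The gene bodies were covered to 31.8% over the 9 genes, beside 27.3% over all genes. The pooled shares of gene bodies weight long genes more, and among genes of like length the median percentile of the 9 gene bodies was 53. Upstream flanks are of equal length, and their median share was 11.7% in the 9 genes, beside 16.9% over all genes. Exons (31.4%) and introns (31.8%) had like shares over the 9 genes but not within them. Introns had the higher share at *Aldh1a1* (51.1%, exons 17.3%), *Aldh1a2* (50.9%, exons 21.2%) and *Aldh1a3* (45.2%, exons 28.4%). The same held at *Crabp2* (29.4%, exons 6.28%) and *Rarg* (11.7%, exons 7.30%). Exons had the higher share at *Rxra* (67.1%, introns 44.7%), *Rara* (44.4%, introns 23.6%), *Rarb* (exons 41.5%) and *Cyp26b1* (11.7%, introns 7.67%). The exons made up few bases, between 1322 bp at *Crabp2* and 5462 bp at *Rxra*. Exon and intron shares were not measured over all genes, so that these values describe single genes only.

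Counting further transcript starts changed the picture for some genes. The 9 genes have 33 annotated starts, of which 7 (21.2%) lay inside regions, beside 24.9% of the 86955 starts of all genes. At least 1 such start was found in 6 of 9 members (*Aldh1a2*, *Aldh1a3*, *Crabp2*, *Rara*, *Rarb* and *Rxra*) and in 32.8% of all genes, but the members have more starts per gene (3.67 on average, beside 2.33). Among protein-coding starts alone, 4 of 23 of the members (17.4%) and 24.3% of all lay inside regions. These 4 were the starts of Aldh1a2-001, Rara-001, Rara-002 and Rarb-202. At *Aldh1a3*, *Crabp2* and *Rxra* the start inside a region was that of a non-coding transcript.

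The number of regions and the bases they covered ranked the genes differently. *Aldh1a1* and *Aldh1a2* had few regions for their length and many covered bases, whereas *Rara*, *Rarg*, *Rarb*, *Crabp2* and *Cyp26b1* ranked higher by number than by bases. *Rxra* was near the top by both. Of the 194 regions in the 9 windows, 152 lay in introns alone, 25 touched an exon, and 7 lay in the upstream and 10 in the downstream flank. Introns also made up most of the windows, with 697053 bases, beside 32293 in exons and 45000 in each kind of flank. The median length of the 194 regions was 705 bp, and 21.6% were longer than 2 kb, beside 600 bp and 19.3% in the whole list. Of the 42 regions above 2 kb, 16 were in the synthesis genes and 26 in the receptor genes, 16 of them in *Rarb*.

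**Figure D4:**
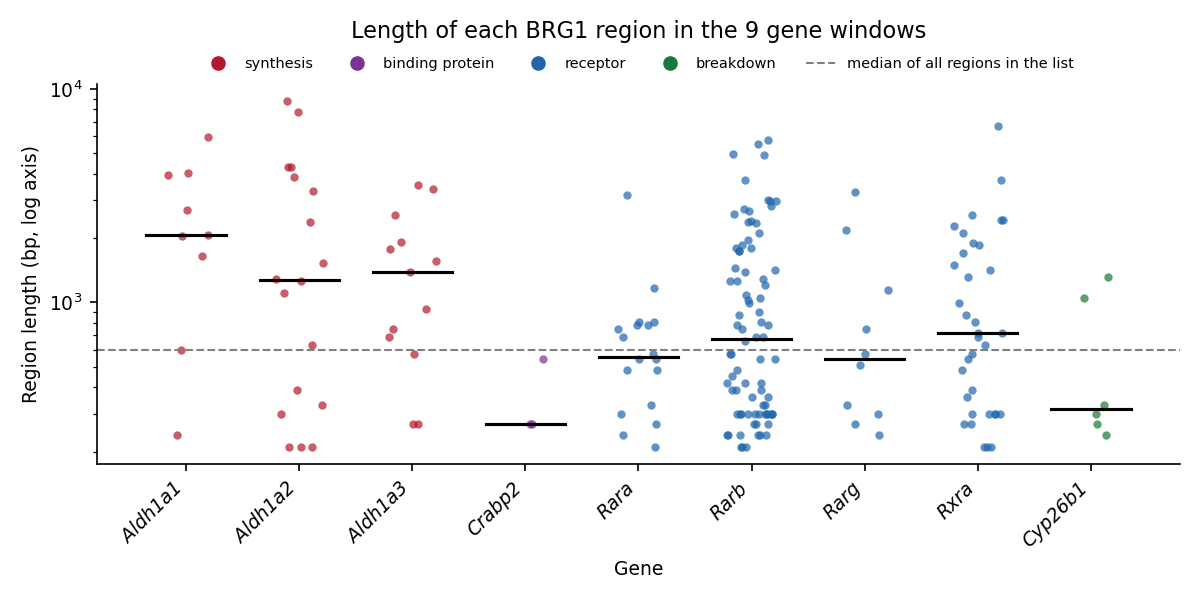
Length of each of the 194 regions in the windows of the 9 genes (bp, log axis), with 1 point per region, the median per gene as a black line and the median of all regions in the list (600 bp) as a dashed line. The medians of the 3 synthesis genes lie between 1275 and 2070 bp, above those of the other 6 genes.

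**Figure D5:**
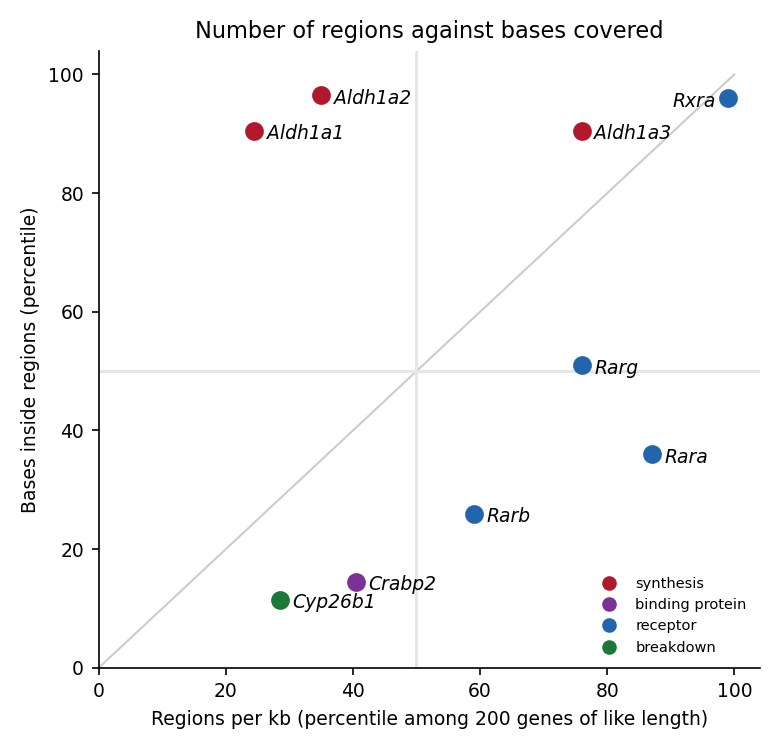
Percentile of the number of regions per kb (x axis) against percentile of the covered share (y axis), each among the 200 genes nearest in length, for the gene body with 5 kb flanks. *Aldh1a1* and *Aldh1a2* lie far above the line of equal ranks, and *Rara*, *Rarb*, *Rarg*, *Crabp2*, *Cyp26b1* and *Rxra* below it.

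The base composition of the windows also differed between the genes, and its relation to the covered share was not tested. G+C content was lowest at *Aldh1a1* (38.0%), *Rarb* (42.4%) and *Aldh1a2* (42.6%) and highest at *Rara* (54.6%) and *Rxra* (54.2%). Each gene was also ranked among the 50 genes nearest in G+C content of the 1000 nearest in length, a smaller set from a wider range of lengths. In this ranking *Aldh1a1*, *Aldh1a2*, *Aldh1a3* and *Rxra* lay at the 88th, 98th, 86th and 96th percentile of covered share and *Crabp2* and *Cyp26b1* at the 16th and 14th. *Rara* moved from the 36th to the 48th percentile and *Rarg* from the 51st to the 60th. Within 5 kb of the start the same ranking moved *Crabp2* from the 26th to the 46th percentile and *Cyp26b1* from the 28.5th to the 42nd. *Aldh1a3* moved from the 63.5th to the 78th and *Aldh1a1* from the 96.5th to the 86th. *Aldh1a2* moved from the 40th to the 48th and *Rarb* from the 7th to the 12th.

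The other genes of the pathway were 15 genes for retinoid uptake, storage, carriage, conversion, reception and corepression. Their median covered share was 26.5% at a median percentile of 52.5, beside 51 for the 9 genes, and within 5 kb of the start their median percentile was 35.5. Of the 15 genes, 5 lay above the upper quartile and 1 below the lower quartile of their genes of like length, 2 (*Rbp4* and *Rxrg*) had a region over the annotated start, and 12 had at least 1 region within 5 kb of it. Over all genes these shares were 24.8%, 24.9%, 24.7% and 89.9%. The highest ranks were those of *Bcmo1*, which encodes the enzyme that splits β-carotene to retinal (38.7% covered, 88th percentile), *Rdh10*, whose product oxidises retinol to retinal (43.3%, 86.5th), and *Ncor1*, a corepressor of unliganded receptors (34.7%, 86.5th). The rank of *Rdh10* came with its flanks, since the gene body alone was covered to 25.2% (47th percentile), and *Rpl7* lies 1111 bp upstream. The lowest were those of the carrier gene *Crabp1* (5.55%, 10.5th percentile), *Stra6*, which encodes a membrane receptor for retinol uptake (22.4%, 31st), and the carrier gene *Fabp5* (16.6%, 35th). The carrier genes *Crabp1* and *Crabp2*, both short, thus had the lowest covered shares of the 24 genes.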

How the data were processed

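The authors mapped reads of BRG1 ChIP and input libraries to mm9 and called enriched regions against input, with Bowtie 1.0.0 and MACS2 2.0.10 named in the submitters' processing notes. The methods name the bdgcomp function, whereas the name of the deposited list has the form of output from a comparison of conditions. Which of them made the list, and the way its duplicates were merged, are not given in the sources used here. The list (chromosome, start, end and name, positions converted to count from 1) carries no count, score or p-value.

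Genes were read from GENCODE M1 on mm9. Regions with at least 1 bp in a window were counted, and covered bases were divided by window length. A TSS is the 5′-most start of a gene. Each gene was ranked among the 200 genes nearest in length, with a 95% Wilson interval that covers counting error over those genes. Sequences were read from the mm9 genome by script. The analysis used Python 3.11.15, numpy 2.4.6, pandas 2.3.3, scipy 1.17.1 and matplotlib 3.10.9. Counting was tested on simulated regions and gave the same values as bedtools 2.31.1 in 2000 of 2000 windows. All 9 genes are named with their longest region and neighbours, and of 15 further pathway genes the 3 highest and 3 lowest ranks. The members and lists were chosen with earlier results of these data known. Alternatives changed the regions, windows, starts, comparison genes, measure and half-sites. PBS-primed and input libraries were not analysed here.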

Additional observations from a re-analysis of the deposited data

How the results depend on the processing

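The median percentile of the gene windows, 51, was 60 with genes also matched on G+C content, 59 by regions per kb and 67 with flanks of 10 kb, and lay between 46.5 and 53 under the other 7 alternatives. Within 5 kb of the start the median percentile, 40, was 52.25 with 2 kb on either side and lay between 36.5 and 46 under the other 9. The count of 1 member with a region over its start became 3 with regions within 500 bp of the start and 6 with any annotated transcript start. The 194 regions became 125 when regions within 500 bp were joined and 106 when those under 600 bp were left out. The 5 DR5 and DR2 matches inside regions became 0 with AGGTCA half-sites alone. Of 180 percentiles of single genes under the alternatives, 127 stayed within their interval and 53 left it, 16 of these by regions per kb. By that measure *Aldh1a1* fell from the 90.5th to the 24.5th percentile and *Aldh1a2* from the 96.5th to the 35th, and *Rara* rose from the 36th to the 87th. The causes were not tested. Leaving out replicates and a stricter score were not possible, since the list holds neither. No paired analysis was possible because the list does not separate the duplicates. Its depth is unknown, so that a base left without a region for want of reads cannot be told apart from one without enrichment.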
